A study of Saccharomyces cerevisiae with 4 samples.

Results

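The 10 open reading frames (ORFs) described here serve gluconeogenesis, the glyoxylate cycle and the use of acetate in budding yeast, and were followed by ribosome profiling, in which stretches of mRNA covered by a ribosome (footprints) are sequenced. They were chosen by systematic name and comprise the gluconeogenic enzymes *FBP1* (YLR377C) and *PCK1* (YKR097W), the glyoxylate cycle with its malate and citrate steps, *ICL1* (YER065C), *MLS1* (YNL117W), *MDH2* (YOL126C) and *CIT2* (YCR005C), the acetyl-CoA synthetase *ACS1* (YAL054C) and the carriers *ATO1* (YCR010C, also called *ADY2*), *JEN1* (YKL217W) and *SFC1* (YJR095W). All 10 of the 10 names had a row among the 5371 ORFs of the deposited table.

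Yeast cells that are given acetate as their only carbon source have to build sugar phosphates from it. Acetate is taken up at the plasma membrane and activated to acetyl-CoA. The glyoxylate cycle then joins acetyl-CoA units into dicarboxylic acids without losing carbon as CO2, and gluconeogenesis turns them into sugar phosphates with its own enzymes at the steps that glycolysis cannot run backwards. These genes are repressed by glucose, and sporulation medium contains acetate in place of glucose.

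The libraries came from diploid *MATa/alpha* cells of the SK1 background, 2 libraries of *dbp1Δ* cells and 2 libraries of wild-type cells. In *dbp1Δ* the ORF of *DBP1*, a DEAD-box RNA helicase, had been taken out with Cas9 and no marker had been put in its place, and the wild-type cells carried *DBP1*. All 4 samples were collected 6 h after transfer to rich sporulation (SPO) medium with potassium acetate, after a brief cycloheximide treatment. The study's reporting checklist describes its replicates as biological, and whether those of a genotype came from separate clones is not given in the sources used here. Values are footprint RPKM, reads of an ORF scaled to its length and to the mapped reads of the library, so that levels of different ORFs can be set side by side. Footprints depend on both mRNA level and ribosome load, and in bulk samples fewer expressing cells cannot be told apart from fewer footprints per cell.

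The steps of the RPKM values correspond to depths of 5789194 and 4971129 mapped reads for *dbp1Δ* replicates 1 and 2 and of 5294778 and 4619171 for wild-type replicates 1 and 2. *DBP1* was at 0.578 and 0.449 RPKM in the *dbp1Δ* libraries, against 164 and 147 RPKM in the wild-type libraries. All 13 meiotic genes of a list checked here lay above the median ORF in every library, between 54.8 and 4219 RPKM. Of the 6 haploid-specific genes tested, which diploids repress, 2 lay above the median in every library, among them *STE18* at 1545 and 1813 RPKM in *dbp1Δ* and 1652 and 1713 RPKM in wild type. *dbp1Δ* replicate 1 stood apart from the other libraries. It differed 2-fold or more from them for 146 to 222 ORFs, against 41 to 79 ORFs for the other pairs. The calls below are therefore also given with each *dbp1Δ* library alone.

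The 10 ORFs spanned a 213-fold range of level. The order of the mean over the 4 libraries was *ATO1*, *ACS1*, *MDH2*, *PCK1*, *CIT2*, *ICL1*, *MLS1*, *SFC1*, *FBP1* and *JEN1*. All 10 were above the median ORF in every library, as were 45.8% of all listed ORFs. Together they held 3.07% and 2.53% of the mapped reads of *dbp1Δ* replicates 1 and 2, against 2.81% and 2.81% in wild-type replicates 1 and 2. *ATO1* alone held 1.24% and 0.837% in *dbp1Δ* and 0.930% and 0.965% in wild type. Without *ATO1* the shares were 1.83% and 1.69% in *dbp1Δ*, against 1.88% and 1.85% in wild type.

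**Figure D1:**
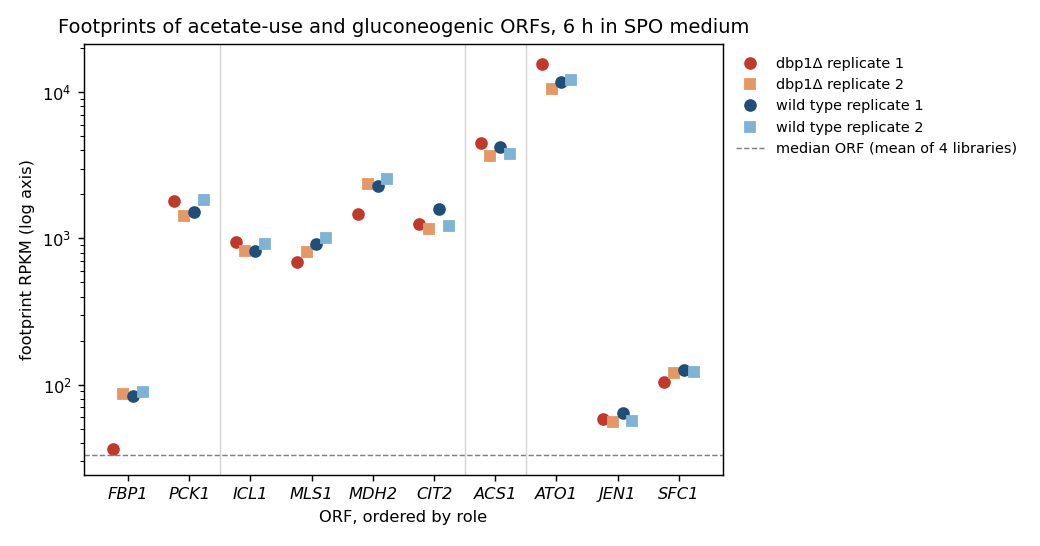
Footprint RPKM of the 10 ORFs on a log axis, 1 point per library, with *dbp1Δ* to the left of wild type, and the median ORF as a dashed line. Vertical lines separate gluconeogenic enzymes, glyoxylate cycle enzymes, acetyl-CoA synthetase and carriers. *ATO1* is highest in every library, and *FBP1* of *dbp1Δ* replicate 1, at 36.1 RPKM, is the lowest of the points.

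Some neighbours in this order did not differ beyond their spread over the libraries. *ATO1* was above *ACS1* by 2.79- to 3.51-fold and *ACS1* above *MDH2* by 1.47- to 3.04-fold in all 4 libraries. *MDH2* was above *PCK1* in 3 of 4 libraries and *PCK1* above *CIT2* in 3 of 4, and the ranges of these neighbours overlapped. *CIT2* was above *ICL1* in all 4 libraries, while *ICL1* and *MLS1* changed places, each being higher in 2 of 4. The largest step lay between *MLS1* and *SFC1*, by 6.59- to 8.15-fold. *FBP1* was above *JEN1* in 3 of 4 libraries and below it in *dbp1Δ* replicate 1.

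The reads behind each value ranged from 206 to 71899, and for most of the 10 the libraries of a genotype differed by more than intervals computed from these reads. The exact 95% Clopper-Pearson intervals of the *dbp1Δ* replicates did not overlap for 8 of 10 ORFs and those of the wild-type replicates for 7 of 10. These intervals cover counting error only, and may be too narrow even for that, since reads of amplified libraries are not independent molecules.

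The first question was whether the 10 ORFs differed between *dbp1Δ* and wild type. In limma on log2(RPKM + 0.5), 0 of 10 passed an adjusted p under 0.05 in either direction, where 2 of 5338 tested ORFs passed (0.0375%, with 0.0187% higher and 0.0187% lower), and 0 of 10 had an unadjusted p under 0.05 (1.67% of tested ORFs). All 10 had passed the filter of a mean of at least 1 RPKM. The log2 fold change, *dbp1Δ* minus wild type, was above 0 for 3 and below 0 for 7 of the 10, where 57% of tested ORFs were below 0. Its median was -0.11, against -0.03 over all tested ORFs. Both *dbp1Δ* libraries lay below both wild-type libraries for 2 ORFs (*MLS1* and *SFC1*), which 15.3% of tested ORFs did, and above both for 0, which 9.59% did. limma's adjusted p was 0.9998 for each of the 10. An exact two-sided permutation test was not run, since 2 libraries a genotype allow no p smaller than 0.333. The count of the 10 stayed at 0 in limma without wild-type replicate 1 or without wild-type replicate 2, where 0.112% and 0.131% of tested ORFs passed, and with the replicate number as a block, where 0.468% did. It was also 0 with the replicate numbers crossed and with limma voom on reads recovered from the RPKM values, where 0.525% and 0.0189% passed, both chosen after seeing the data. The count under an unadjusted p of 0.05 was less stable. With quantile normalization and with limma voom it was 1 (*MLS1*), where 100 and 70 tested ORFs were under it. With the block and the crossed block it was also 1 (*FBP1*), where 141 and 155 tested ORFs were.

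**Figure D2:**
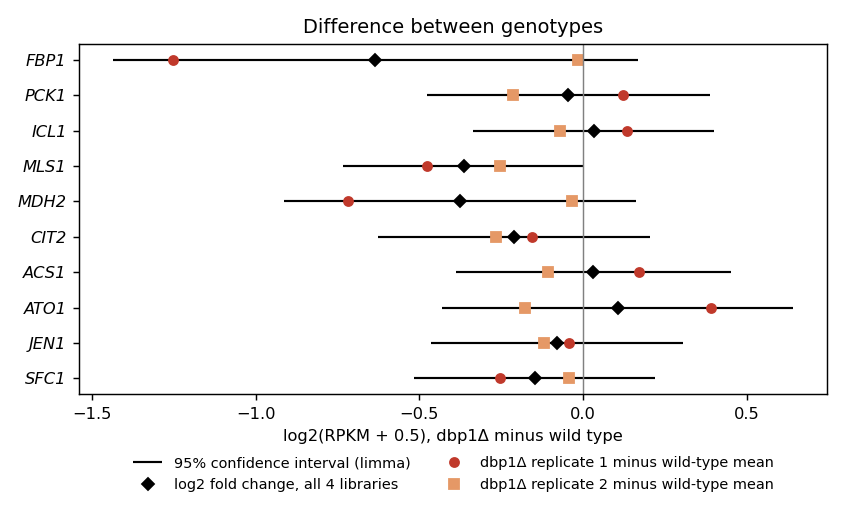
Difference between *dbp1Δ* and wild type in log2(RPKM + 0.5) for the 10 ORFs, with the limma estimate over all 4 libraries (diamond), its 95% confidence interval (line) and each *dbp1Δ* library minus the wild-type mean (circle, replicate 1; square, replicate 2). Every interval includes 0, and the *dbp1Δ* libraries are furthest from each other for *FBP1*, at -1.25 and -0.015.

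*FBP1* encodes fructose bisphosphatase, which removes a phosphate from fructose bisphosphate in the opposite direction to phosphofructokinase. In *dbp1Δ* its footprints came to 36.1 RPKM (206 reads) in replicate 1 and 85.8 RPKM (421 reads) in replicate 2, against 84.0 RPKM (439 reads) and 89.5 RPKM (408 reads) in wild type. *dbp1Δ* replicate 1 was the low library, and the other 3 lay within the counting intervals of each other. The mean was 60.9 ± 35.2 RPKM in *dbp1Δ* and 86.7 ± 3.88 RPKM in wild type (SD, n = 2 libraries each). On the log2 scale the difference was -0.63 (standard error 0.35, 95% confidence interval -1.44 to 0.17). In RPKM *dbp1Δ* replicates 1 and 2 stood at 0.416 and 0.989 of the wild-type mean.

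*PCK1* encodes phosphoenolpyruvate carboxykinase, which makes phosphoenolpyruvate from oxaloacetate. It was at 1810 and 1433 RPKM in *dbp1Δ* replicates 1 and 2, against 1506 and 1835 RPKM in wild type. The genotypes overlapped, with 1 high and 1 low library in each. limma gave a log2 fold change of -0.05 (standard error 0.19, 95% confidence interval -0.48 to 0.39). The 2 enzymes of the gluconeogenic route thus stood at quite different levels, with *PCK1* ranked 97 and *FBP1* ranked 1627 among the listed ORFs by mean RPKM.

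*ICL1* encodes isocitrate lyase, which splits isocitrate into succinate and glyoxylate. It was at 950 and 823 RPKM in *dbp1Δ*, against 821 and 911 RPKM in wild type. Its highest library was 1.16-fold above its lowest, so that it was among the least variable of the 10 together with *JEN1*. Its fitted log2 fold change was 0.03 (standard error 0.16, 95% confidence interval -0.34 to 0.40).

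*MLS1* encodes malate synthase, which joins glyoxylate and acetyl-CoA to malate. In *dbp1Δ* its footprints came to 688 RPKM (6395 reads) in replicate 1 and 803 RPKM (6409 reads) in replicate 2, against 917 RPKM (7789 reads) and 1001 RPKM (7422 reads) in wild type. Both *dbp1Δ* libraries were below both wild-type libraries, and no counting interval of one genotype overlapped an interval of the other. The mean was 746 ± 81.3 RPKM in *dbp1Δ* and 959 ± 59.8 RPKM in wild type (SD, n = 2 libraries each), a ratio of 0.778. The log2 fold change was -0.37 (standard error 0.16, 95% confidence interval -0.73 to 0.0031), and limma gave an unadjusted p of 0.0515 and an adjusted p of 0.9998. It was the ORF among the 10 with the smallest unadjusted p.

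*MDH2* encodes the cytosolic malate dehydrogenase, which oxidises malate to the oxaloacetate used by Pck1. It was at 1471 and 2363 RPKM in *dbp1Δ* replicates 1 and 2, against 2292 and 2552 RPKM in wild type. *dbp1Δ* replicate 1 was again the low library, and replicate 2 lay inside the wild-type range. On the log2 scale the difference was -0.38 (standard error 0.23, 95% confidence interval -0.91 to 0.16). In RPKM *dbp1Δ* replicates 1 and 2 stood at 0.607 and 0.976 of the wild-type mean.

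*CIT2* encodes the peroxisomal citrate synthase. It was at 1251 and 1160 RPKM in *dbp1Δ*, against 1595 and 1220 RPKM in wild type. Here wild-type replicate 1 was the high library, and the other 3 were closer to each other. limma gave a log2 fold change of -0.21 (standard error 0.18, 95% confidence interval -0.63 to 0.20), and without wild-type replicate 1 it was -0.02.

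*ACS1* encodes the acetyl-CoA synthetase that is repressed by glucose. It was at 4471 and 3684 RPKM in *dbp1Δ* and at 4205 and 3749 RPKM in wild type, and ranked 30 among the listed ORFs by mean RPKM. The wild-type values lay inside the range of the *dbp1Δ* values. Its fitted log2 fold change was 0.03 (standard error 0.18, 95% confidence interval -0.39 to 0.45).

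*ATO1* encodes an acetate transporter of the plasma membrane, and *ADY2*, its other name, refers to the accumulation of dyads, asci with a pair of spores in place of the full set, in its mutants. It was at 15681 and 10571 RPKM in *dbp1Δ* replicates 1 and 2, against 11736 and 12190 RPKM in wild type, and ranked 7 and 10 in the *dbp1Δ* libraries and 8 and 8 in the wild-type libraries. *dbp1Δ* replicate 1 was the high library and replicate 2 the low one, on either side of wild type. The log2 fold change was 0.11 (standard error 0.23, 95% confidence interval -0.43 to 0.64). In RPKM *dbp1Δ* replicates 1 and 2 stood at 1.31 and 0.884 of the wild-type mean.

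The other carriers stood far below *ATO1*, with *SFC1* ranked 1151 and *JEN1* ranked 1878 among the listed ORFs by mean RPKM. *JEN1*, which encodes a lactate and pyruvate permease, was at 58.6 and 55.6 RPKM in *dbp1Δ*, against 64.2 and 56.8 RPKM in wild type. Its genotypes overlapped, and its log2 fold change was -0.08 (95% confidence interval -0.47 to 0.31). *SFC1*, which encodes the mitochondrial carrier that exchanges succinate for fumarate, was at 105 and 121 RPKM in *dbp1Δ*, against 127 and 123 RPKM in wild type. Both *dbp1Δ* values were the lower ones, but the counting interval of *dbp1Δ* replicate 2, from 111 to 132 RPKM, included both wild-type values. Its log2 fold change was -0.15 (95% confidence interval -0.52 to 0.22).

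On the log2(RPKM + 0.5) scale the replicates were further apart in *dbp1Δ* than in wild type for 8 of the 10, and for 73.4% of tested ORFs. Replicate 1 was 1.5-fold or more below replicate 2 in *dbp1Δ* for *FBP1* and *MDH2*, which was so for 5.4% of tested ORFs, and 1.5-fold or more above it for 0 of the 10, which was so for 13.5%. In wild type 0 of the 10 were 1.5-fold or more apart, against 5% of tested ORFs. The log2 ratio of replicate 1 to replicate 2 in *dbp1Δ* ran from -1.24 for *FBP1* and -0.68 for *MDH2* to 0.34 for *PCK1* and 0.57 for *ATO1*. *FBP1* lay at percentile 0.618 and *MDH2* at percentile 3.33 of all tested ORFs in this ratio. Compared with the other 3 libraries, that library was lowest for 4 (*FBP1*, *MLS1*, *MDH2*, *SFC1*), highest for 3 (*ICL1*, *ACS1*, *ATO1*) and in between for 3 (*PCK1*, *CIT2*, *JEN1*). It lay outside the range of the other libraries for 73.8% of tested ORFs.

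**Figure D3:**
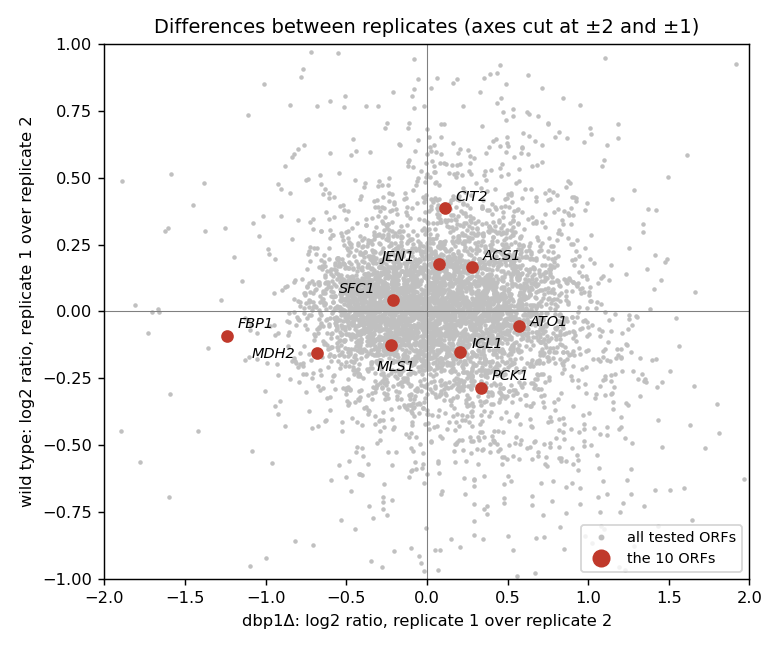
Log2 ratio of replicate 1 to replicate 2 in *dbp1Δ* (x axis) and in wild type (y axis) on the log2(RPKM + 0.5) scale, 1 point per ORF, with the 10 ORFs in red and all tested ORFs in grey. *FBP1* and *MDH2* lie far to the left, at -1.24 and -0.68, and *ATO1* to the right, at 0.57, while their wild-type ratios lie between -0.16 and -0.05. The axes stop at 2 and 1, which leaves 60 tested ORFs outside.

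When *dbp1Δ* replicate 1 alone was set against wild type, 4 of the 10 passed in limma at an adjusted p under 0.05, as did 9.7% of tested ORFs. *FBP1* (log2 fold change -1.25, adjusted p = 0.00584), *MDH2* (-0.72, adjusted p = 0.00930) and *MLS1* (-0.48, adjusted p = 0.0233) were lower and *ATO1* was higher (0.39, adjusted p = 0.0188). In that fit the lone library is assumed to vary like the wild-type pair, and 5.62% of tested ORFs passed as lower and 4.08% as higher. When *dbp1Δ* replicate 2 alone was set against wild type, 0 of 10 passed, where 0.0187% of tested ORFs did. There the log2 fold change was -0.015 for *FBP1*, -0.033 for *MDH2*, -0.25 for *MLS1* and -0.18 for *ATO1*. The size of the differences for *FBP1* and *MDH2* and the direction for *ATO1* thus depended on *dbp1Δ* replicate 1. *MLS1* was below the wild-type mean in either *dbp1Δ* library. So were *CIT2* (-0.16 and -0.27), *SFC1* (-0.25 and -0.043), *JEN1* (-0.042 and -0.12) and, by little in replicate 2, *FBP1* and *MDH2*. *PCK1*, *ICL1* and *ACS1*, like *ATO1*, were above that mean in replicate 1 and below it in replicate 2. Other genes moved in *dbp1Δ* replicate 1 too. Of the 13 meiotic genes, 5 were 1.5-fold or more higher in *dbp1Δ* replicate 1 than in replicate 2 (13.5% of tested ORFs) and 0 were 1.5-fold or more lower (5.4%), and the log2 ratios ran from -0.42 to 1.04 with a median of 0.10. These ratios went both ways. For *IME1*, *SPO11*, *HOP1*, *REC8*, *ZIP1* and *DMC1* they ran from 0.52 to 1.04. For *NDT80*, *CLB1*, *SMK1* and *SSP1* they ran from -0.42 to -0.33. *IME2*, *SPS1* and *SPR3* lay between, from 0.0056 to 0.10. The summed level of the 13 was 17183 and 16702 RPKM in *dbp1Δ*, against 17294 and 17056 RPKM in wild type. *SPS1* and *SPR3*, at 3883 to 4219 RPKM over the 4 libraries, weighed most in that sum, which hides the opposite shifts. Whether these shifts have a part in the values of the 10 ORFs was not tested.

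For 8 of the 10 ORFs, all but *MLS1* and *JEN1*, the level was then set against that of an isoform, a related carrier or an opposed step within the same library. *ACS1* was 68.2- to 80.9-fold above *ACS2*, the acetyl-CoA synthetase that is also made on glucose. *ATO1* was 303- to 397-fold above its relative *ATO2*. *PCK1* was 54.2- and 23.5-fold above *CDC19*, the pyruvate kinase of the opposed glycolytic step, in *dbp1Δ* replicates 1 and 2, and 23.2- and 28.2-fold above it in wild type. *dbp1Δ* replicate 1 was the high library in that ratio, and *CDC19* was lowest in it.

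*FBP1* stood close to the subunits of phosphofructokinase, the enzyme it opposes. Its ratio to *PFK1* was 0.578 and 1.41 in *dbp1Δ* replicates 1 and 2, against 1.33 and 1.47 in wild type, and its ratio to *PFK2* was 0.467 and 0.977 in *dbp1Δ*, against 0.969 and 1.08 in wild type. At 6 h in SPO medium the wild-type footprints of this pair of opposed steps were thus within 1.5-fold of each other, unlike those of *PCK1* and *CDC19*.

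Among the isoforms, *MDH2* was 2.27- to 3.04-fold above the mitochondrial *MDH1* and 6.37- to 12.6-fold above the peroxisomal *MDH3*. *ICL1* was 3.15- to 4.47-fold above *ICL2*, which encodes a mitochondrial methylisocitrate lyase. *CIT2* was the exception, at 0.393- to 0.546-fold of the mitochondrial citrate synthase *CIT1*. *SFC1* was 2.83- to 3.27-fold above *DIC1*, the mitochondrial dicarboxylate carrier. How reads shared by related ORFs were assigned is not given in the sources used here, so ratios between relatives are uncertain to that extent.

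**Figure D4:**
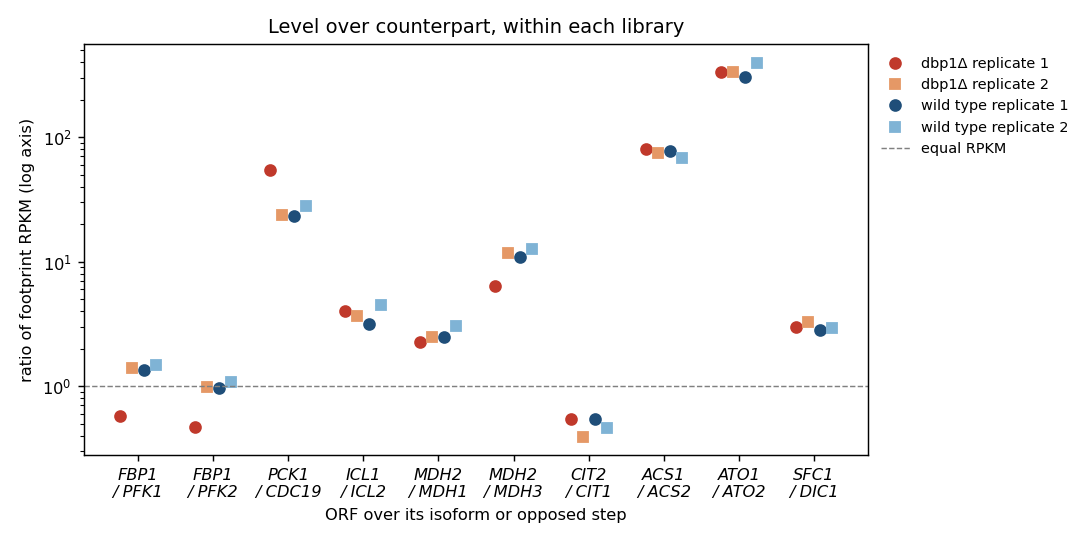
Ratio of the footprint RPKM of 8 of the 10 ORFs to that of an isoform, a related carrier or an opposed step, 1 point per library on a log axis, with *dbp1Δ* to the left of wild type and equal RPKM as a dashed line. *ATO1* over *ATO2* and *ACS1* over *ACS2* are the highest, *CIT2* over *CIT1* lies below equal in all 4 libraries, and *FBP1* over *PFK1* and *PFK2* falls lowest in *dbp1Δ* replicate 1.

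Finally, 47 related ORFs in 5 lists were read from the same fit. Of these, 0 of 47 passed an adjusted p under 0.05 in either direction, where 0.0375% of tested ORFs did. The log2 fold change was below 0 for 28 of the 47, and for 57% of tested ORFs. Of 14 partner enzymes and carriers, 4 had a log2 fold change above 0 and 10 below 0, from -0.33 for *IDP2*, the cytosolic isocitrate dehydrogenase, to 0.23 for *PYC1*, a pyruvate carboxylase. Of 9 ORFs for acetate, ethanol and acetyl-carnitine, 3 were above 0 and 6 below 0. The lowest was *ADH2*, the alcohol dehydrogenase that oxidises ethanol, at 799 and 2077 RPKM in *dbp1Δ* replicates 1 and 2, against 2104 and 1708 RPKM in wild type. Like *FBP1* and *MDH2*, it was low in *dbp1Δ* replicate 1 alone. The highest was *ALD6*, the cytosolic aldehyde dehydrogenase, at 10.2 and 7.25 RPKM in *dbp1Δ*, against 6.81 and 6.75 RPKM in wild type.

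Of 10 transcription regulators, 7 were above 0 and 3 below 0. *CAT8*, which encodes the activator of gluconeogenic genes, was at 86.0 and 105 RPKM in *dbp1Δ*, against 95.7 and 86.8 RPKM in wild type, so that the genotypes overlapped. The list ran from -0.29 for *RDS2* to 0.42 for *ERT1*, both regulators of growth on non-fermentable carbon. *ERT1* was at 1.48 to 2.48 RPKM over the 4 libraries, from 12 to 22 reads each. Its counting intervals overlapped between the genotypes.

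The GID complex is the ubiquitin ligase that marks Fbp1, Pck1, Icl1 and Mdh2 for degradation when glucose returns. Of its 9 ORFs, 4 were above 0 and 5 below 0. *GID10*, which encodes an alternative substrate receptor, was at 92.5 and 36.7 RPKM in *dbp1Δ* replicates 1 and 2, against 28.5 and 35.6 RPKM in wild type. Its value in *dbp1Δ* replicate 1 stood alone, and the difference came to 0.86 on the log2 scale, with a standard error of 0.38 (limma, adjusted p = 0.9998). With the replicate number as a block limma gave it a standard error of 0.23 and an adjusted p of 0.0355. Its log2 ratio of replicate 1 to replicate 2 was 1.32 in *dbp1Δ* and -0.32 in wild type. A replicate effect shared by the genotypes does not describe that spread. With the replicate numbers crossed, a fit chosen after seeing the data, limma gave the same standard error of 0.23 and an adjusted p of 0.0322. In both fits the standard error leans on the variance shared across ORFs more than on the spread of *GID10* itself. Neither p is therefore read as a difference between genotypes. Without *dbp1Δ* replicate 1 the log2 fold change of *GID10* was 0.20. The lowest of the list was *UBC8*, the ubiquitin-conjugating enzyme of the complex, at -0.26.

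Of 5 ORFs of steps run by glycolysis or fermentation and not by gluconeogenesis, 1 was above 0 and 4 below 0. *CDC19* was at 33.4 and 60.9 RPKM in *dbp1Δ*, against 64.8 and 65.1 RPKM in wild type. *PYK2*, the second pyruvate kinase, was at 26.1 and 21.8 RPKM in *dbp1Δ*, against 19.1 and 17.8 RPKM in wild type. Each of these kinases had both *dbp1Δ* values on the same side of both wild-type values. *CDC19* was below, like 15.3% of tested ORFs, and *PYK2* above, like 9.59%. In *dbp1Δ* replicate 2 the counting interval of *CDC19*, from 55.3 to 66.9 RPKM, included both wild-type values. That of *PYK2*, from 18.5 to 25.4 RPKM, included the value of wild-type replicate 1. Neither kinase passed the test.

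**Figure D5:**
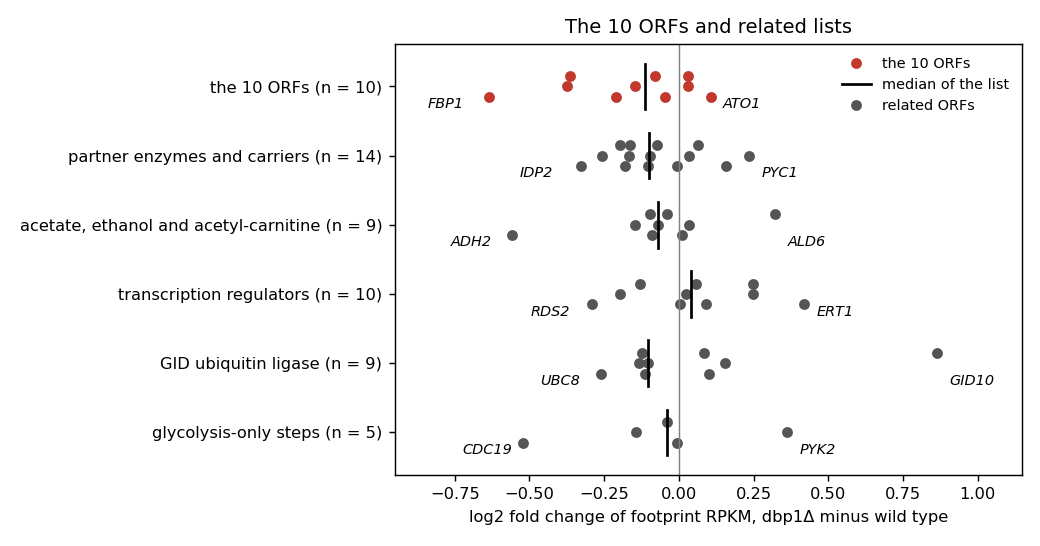
Log2 fold change of footprint RPKM, *dbp1Δ* minus wild type, for the 10 ORFs (red) and for 5 lists of related ORFs (grey), 1 point per ORF spread vertically for legibility, with the median of each list as a black bar and the lowest and highest ORF named. The median of the 10 ORFs is -0.11, and *GID10*, at 0.86, is the highest point.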

How the data were processed

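Ribosome profiling was carried out on 2 *dbp1Δ* and 2 wild-type libraries. The authors mapped reads to the SK1 genome, counted them per ORF and deposited footprint RPKM, reads of an ORF scaled to its length and to the mapped reads of the library. Bowtie2 is named in the submitters' processing notes, without a version, and the annotation and filters are not given in the sources used here. RPKM divided by the library total makes each ORF relative to all others, so a change in a few abundant ORFs moves the rest.

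The genotypes were compared on log2(RPKM + 0.5) by limma 3.58.1 (lmFit, then eBayes with a trend; R 4.3.3), on genotype alone, for the 5338 ORFs whose mean reached 1 RPKM, and p-values were adjusted over all of these by Benjamini-Hochberg. The pseudocount makes fold changes of low ORFs too small. Depth was recovered from the steps of the RPKM values. With the reference ORF length less 60 nt, 88.4% of values of 5311 ORFs were within 0.01 of whole reads, as were all 40 values of the 10 ORFs. Intervals and figures were made in Python 3.11.15 with scipy 1.17.1 and matplotlib 3.10.9. Depth recovery and the limma fit were tested on simulated data.

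Symbols came from the S288C annotation R64, which lists 5311 of the 5371 ORFs. Since the files use SK1, no coordinates are given. *DAL7*, *HXK2*, *HO* and *FAR1* of the gene lists had no row among the 5371 ORFs under the names used, and no sequences were used here. Named ORFs were the 10, their counterparts, *DBP1* and, in each related list, any ORF past the threshold and the highest and lowest fold change. *CAT8*, *STE18* and the names of the meiotic genes were added after their values were seen. The members and lists were chosen with earlier results of these data known. The alternatives tried were other pseudocounts (0.1, 1), other filters (none, a mean of 10 RPKM), eBayes with no trend, centring on the median, quantile normalization, scaling to 1 median RPKM, a replicate block, and each library left out. A crossed block and limma voom on recovered reads were added after seeing the data.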

Additional observations from a re-analysis of the deposited data

How the results depend on the processing

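In limma 0 of the 10 reached an adjusted p under 0.05 in any fit that used all 4 libraries, and the median of their log2 fold changes lay between -0.17 and -0.09 with each library left out. Leaving out 1 library each moved the count of the 10 from 0 to 4, of related ORFs from 0 to 9 and of all tested ORFs from 1 to 518. The highest counts came without *dbp1Δ* replicate 2. With 1 library left out, log2 fold changes ran from -0.0716 to 0.14 for *ICL1*, from -0.11 to 0.17 for *ACS1*, from -0.18 to 0.39 for *ATO1*, from -0.21 to 0.12 for *PCK1* and from -0.17 to 0.0072 for *JEN1*, so that their direction turned. *CIT2* (-0.41 to -0.018), *FBP1* (-1.25 to -0.015), *MDH2* (-0.72 to -0.033) and *SFC1* (-0.25 to -0.043) stayed below 0 but came close to it. *MLS1* ran from -0.48 to -0.25.

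The labels number replicates alike in both genotypes, but deviations of same-numbered libraries had a correlation of -0.135 across tested ORFs. With the replicate block 25 ORFs passed, against 2 without it, and 28 with the crossed pairing, added after seeing the data. A block leaves fewer residual degrees of freedom, so limma leans more on the variance shared across ORFs. These counts therefore cannot be set directly against that of the main fit, and they are not read as differences between genotypes. In each of these fits 1 related ORF passed, *GID10*, and 0 of the 10 did. limma voom on recovered reads, also added, called 1 ORF. The cause of the differing counts was not tested. Scaling libraries to the same median RPKM moved 0 of 20 genotype means by more than 1 SD between replicates. Among the 10, depth limits *FBP1*, *JEN1* and *SFC1* most, at 206 to 609 reads a library.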
